A study of Gallus gallus with 18 samples.

Results

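The response of injured retinal pigment epithelium (RPE) to FGF2 was compared between chicken embryos operated on day 4 (E4) and on day 5 (E5) of incubation. The comparison used 12 of the 18 RNA-seq libraries of the series, 3 in each of 4 groups, and no library of uninjured, developing RPE. The 4 groups were E5 6hPR + FGF2, E5 6hPR, E4 6hPR + FGF2 and E4 6hPR, where 6hPR is RPE collected 6 h after retinectomy, the surgical removal of the neural retina, and + FGF2 means that a heparin bead carrying bovine FGF2 was left in the eye cup at surgery. All 4 groups were thus injured, and the groups of 1 stage differed by the FGF2 bead, so that the bead and its growth factor cannot be told apart. Each library was a pool of 3 RPE sheets from which the neural retina had been peeled and the mesenchyme debrided, so that p-values measure the spread between pools. The embryos were wild-type White Leghorn according to the labels, of Hamburger-Hamilton stages 24 (E4) and 26 (E5). The methods instead name SPAFAS eggs for RNA-seq, and White Leghorn eggs for experiments other than the sequencing. Here, the FGF2 step of a gene is the log2 difference of 6hPR + FGF2 over 6hPR at 1 stage, computed on log2(normalized count + 0.5), and the interaction is the E5 step minus the E4 step. Steps and interactions are given on the log2 scale with their standard error (SE), and adjusted p-values come from limma with Benjamini-Hochberg adjustment over 17816 genes, and a gene is called where its adjusted p does not exceed 0.05.

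In the embryonic chick eye, FGF ligands bind receptor tyrosine kinases and activate the RAS/ERK cascade. Active ERK induces its own inhibitors, the Sprouty (SPRY) and SPRED proteins and the dual-specificity phosphatases (DUSP), together with ETV transcription factors of the PEA3 group. RPE at the earlier stage can be reprogrammed to a retinal neuroepithelium when FGF2 is supplied after retinectomy, a capacity that is lost as the RPE matures, which is the question behind comparing the same FGF2 step at the 2 stages.

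Recovered library totals were 58872043 to 64509624 reads in E5 6hPR + FGF2, 55565192 to 68376749 in E5 6hPR, 53604022 to 59860224 in E4 6hPR + FGF2 and 50723222 to 55370406 in E4 6hPR. The spread between replicates was not equal. For the 13103 genes averaging at least 50 normalized counts, log2 values had a median SD of 0.0921 in E5 6hPR + FGF2, 0.150 in E5 6hPR, 0.157 in E4 6hPR + FGF2 and 0.172 in E4 6hPR. Among 12 RPE markers, PMEL, TYR, DCT and RLBP1 were high in every library, whereas RPE65 was at 184 to 214 normalized counts in E5 6hPR + FGF2. The summed level of the 12 markers, which is weighted to the abundant members, was 1013130 to 1177620 in E5 6hPR + FGF2, 1310560 to 1561330 in E5 6hPR, 453296 to 700462 in E4 6hPR + FGF2 and 489718 to 776066 in E4 6hPR. The W-linked gene HINTW was at 0 in E5 6hPR replicate 3 and at 60.4 in E4 6hPR + FGF2 replicate 3, against 29417 or more in the other 10 libraries. Of those 13103 genes, 32 stood in both of these libraries at less than 0.1 of their lowest level elsewhere. Their E5 steps were 1.73 to 5.37 and their E4 steps -4.37 to -1.67, and none of the 32 was called for the interaction. Such a drop in a single library also widens the spread within its group, which makes a call unlikely. The lack of calls therefore says nothing about the part of these pools in other interactions, which was not tested.

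The FGF2 step differed between the stages for 1883 of 17816 genes (10.6%): the step was higher at E5 for 1247 genes (7.0%) and lower at E5 for 636 (3.57%), and 5192 genes had an unadjusted p under 0.05. The step itself was called for 5546 genes at E5 (31.1%) and for 1770 at E4 (9.93%). Most differences were changes found at E5: 984 of the 1247 genes had risen with FGF2 at E5 and had no called step at E4, and 478 of the 636 had fallen at E5 with no called step at E4. A smaller set moved at E4 instead, 86 genes of the first kind having fallen at E4 only and 74 of the second having risen at E4 only. Opposite called steps were found in 26 genes that rose at E5 and fell at E4, and in 8 that fell at E5 and rose at E4. Of the 1107 genes called in both steps, 1073 had moved in the same direction, and 111 of those also passed the test for the interaction. Over the 13103 genes that average at least 50 normalized counts, the steps had a Pearson correlation of 0.350 and a Spearman correlation of 0.257, given as a description, and their SD was 0.697 at E5 and 0.523 at E4. All 3 E5 6hPR + FGF2 libraries stood above the other 9 for 910 of the 1247 genes. These genes were selected by the same contrast, so this count is a description and adds no support. For comparison, E5 6hPR + FGF2 differed from E4 6hPR + FGF2 for 6071 genes (34.1%), 3417 higher (19.2%) and 2654 lower (14.9%), or 2855 higher and 3627 lower with quantile normalization, and E5 6hPR from E4 6hPR for 4082 (22.9%), 2322 higher (13.0%) and 1760 lower (9.88%), or 2023 higher and 2216 lower with quantile normalization.

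**Figure D1:**
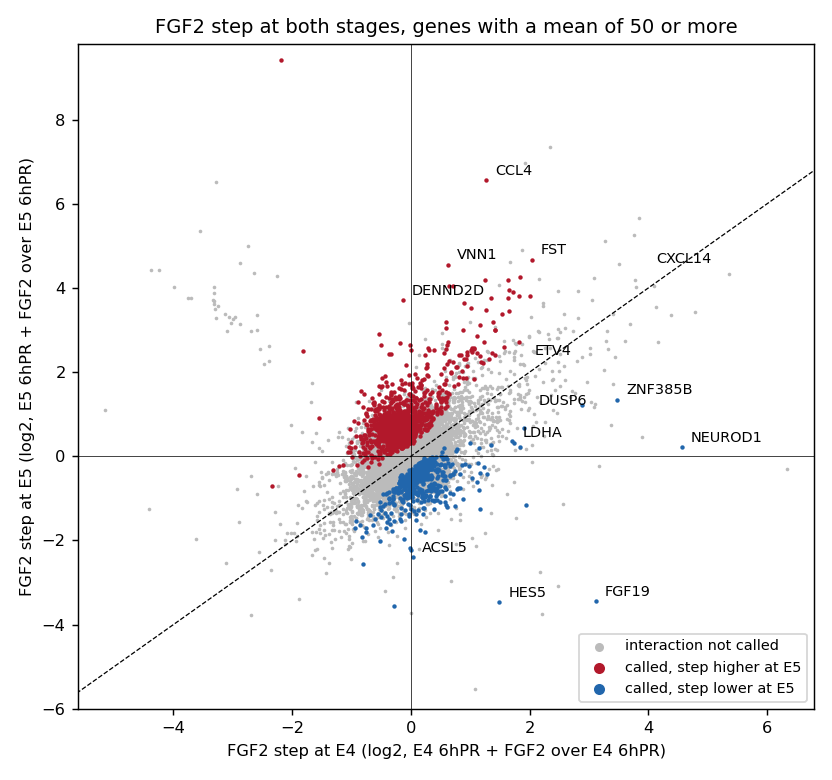
FGF2 step at E5 (vertical, log2) against the FGF2 step at E4 (horizontal, log2) for genes with a mean normalized count of 50 or more; red and blue points were called for the interaction, and the dashed line marks equal steps. Most red points lie above the horizontal axis near an E4 step of 0, while ETV4 and DUSP6 lie near the dashed line; the grey points at the upper left include the 32 genes near 0 in E5 6hPR replicate 3 and E4 6hPR + FGF2 replicate 3.

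The count of 1883 depended on single libraries. It was 143 without E5 6hPR + FGF2 replicate 1, 257 without replicate 2 and 1143 without replicate 3 of that group. It was 3147 without E5 6hPR replicate 1, 191 without replicate 2 and 535 without replicate 3. It was 856 without E4 6hPR + FGF2 replicate 1, 421 without E4 6hPR replicate 1, 3782 without E4 6hPR replicate 2 and 696 without E4 6hPR replicate 3. Over the 12 fits that each leave out 1 library, 113 to 2133 genes were called higher and 30 to 1649 lower. Counts of list members given below for such fits rise and fall beside these totals. Of 89 called genes chosen for description, 12 kept the call without E5 6hPR + FGF2 replicate 1, 16 without E5 6hPR replicate 2, 21 without E5 6hPR + FGF2 replicate 2 and 29 without E4 6hPR replicate 1, whereas 88 kept it without E4 6hPR replicate 2 and 82 without E5 6hPR replicate 1. None of the 89 was called with the opposite sign in any of the 12 fits. For single genes, "7 of 12 fits" means that the call held in 7 of the 12 fits that each leave out 1 library.

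Many feedback inhibitors and targets of FGF/ERK signalling rose with FGF2. Of 25 such genes tested, 17 rose at E5, where 16.7% of all genes tested rose, and 15 rose at E4, where 5.92% did. In both steps 12 rose, and none of these 12 was called for the interaction. Among all 1073 genes that moved in the same direction in both steps, 111 were called for the interaction. That share is near the 10.6% over all genes tested, and none of 12 is little different from it. DUSP6, the phosphatase that inactivates ERK, had 6347, 5995 and 6537 in E5 6hPR + FGF2 against 2186, 1887 and 1659 in E5 6hPR, and 7384, 5532 and 6393 in E4 6hPR + FGF2 against 1420.4, 2494 and 1239 in E4 6hPR, all in normalized counts as for the genes that follow. The groups did not overlap at either stage, and its interaction was -0.24 ± 0.31 (95% interval -0.91 to 0.43). SPRY4, an inhibitor of receptor tyrosine kinase signalling, rose by 2.07 at E5 and 2.16 at E4, and SPRY1 by 1.34 at E5 and 1.46 at E4. The ETS transcription factor ETV4 rose by 2.16 at E5 (adjusted p = 0.000551) and 1.91 at E4 (adjusted p = 0.00367), with an interaction of 0.25 ± 0.43, and ETV1, of the same PEA3 group, rose by 0.68 at E5 and 0.76 at E4. The phosphatase DUSP4 (interaction 0.25 ± 0.33) and the FGF receptor antagonist IL17RD (0.29 ± 0.16) likewise rose at both stages. The precision of the comparison differed among them. The interval of the interaction was -0.32 to 0.16 for ETV1, -0.03 to 0.41 for SPRED1, -0.35 to 0.32 for the receptor FGFR1 and -0.21 to 0.31 for the cyclin CCND1, but -1.42 to 1.25 for SPRY4, -0.70 to 1.20 for ETV4 and -0.95 to 0.71 for SPRY1, so that for the last 3 a sizeable stage difference lies within the interval. E4 6hPR replicate 2 was the highest E4 6hPR library for DUSP6, SPRY1, SPRY4 and ETV4.

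In the same list 5 genes differed between the stages, 4 with a higher step at E5 (7.0% of all genes tested) and 1 with a lower one (3.57%). DUSP16, a phosphatase of JNK and p38, had 1301, 1061 and 1071 in E5 6hPR + FGF2 against 452, 401 and 381 in E5 6hPR, and 539, 636 and 612 in E4 6hPR + FGF2 against 506, 429 and 499.5 in E4 6hPR. Every E5 6hPR + FGF2 library was above the other 9, the interaction was 1.16 ± 0.18 (adjusted p = 0.0104), and the call held in 12 of 12 fits. DUSP10, a phosphatase of the same kinases, had 1221, 1094 and 1179.8 in E5 6hPR + FGF2 against 561, 531 and 592 in E5 6hPR, and 877, 1009 and 905 in E4 6hPR + FGF2 against 708, 831 and 745 in E4 6hPR. Its interaction was 0.76 ± 0.14 (adjusted p = 0.0159, 10 of 12 fits). SPRED2, an inhibitor of RAS/ERK signalling, rose at E5 (step 0.77) and had a step of -0.17 at E4 that did not pass, for an interaction of 0.95 ± 0.17 (adjusted p = 0.0152, 10 of 12 fits). DUSP8 had an interaction of 0.69 ± 0.16 (adjusted p = 0.0278, 6 of 12 fits), and DUSP14 was the member with the lower step at E5, -0.51 ± 0.13 (adjusted p = 0.0346, 5 of 12 fits). SPRY2 rose at E4 (step 1.05, adjusted p = 0.00446) and had an E5 step of 0.41 that did not pass, but its interaction of -0.64 ± 0.25 was not called (adjusted p = 0.114). For ETV5, the third PEA3 factor, neither the E5 step of 0.00 nor the E4 step of 0.58 passed, and the interaction was -0.58 ± 0.26 (adjusted p = 0.169). In the 12 fits with 1 library left out, 1 to 5 members of the list were called higher and 0 to 5 lower. The counts were 1 higher and none lower without E5 6hPR + FGF2 replicate 1 or E5 6hPR replicate 2, and 4 higher and 5 lower without E4 6hPR replicate 2. Of all 17816 genes, 113 were called higher and 30 lower in the first of these fits. In the second the counts were 155 and 36, and in the last 2133 and 1649.

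**Figure D2:**
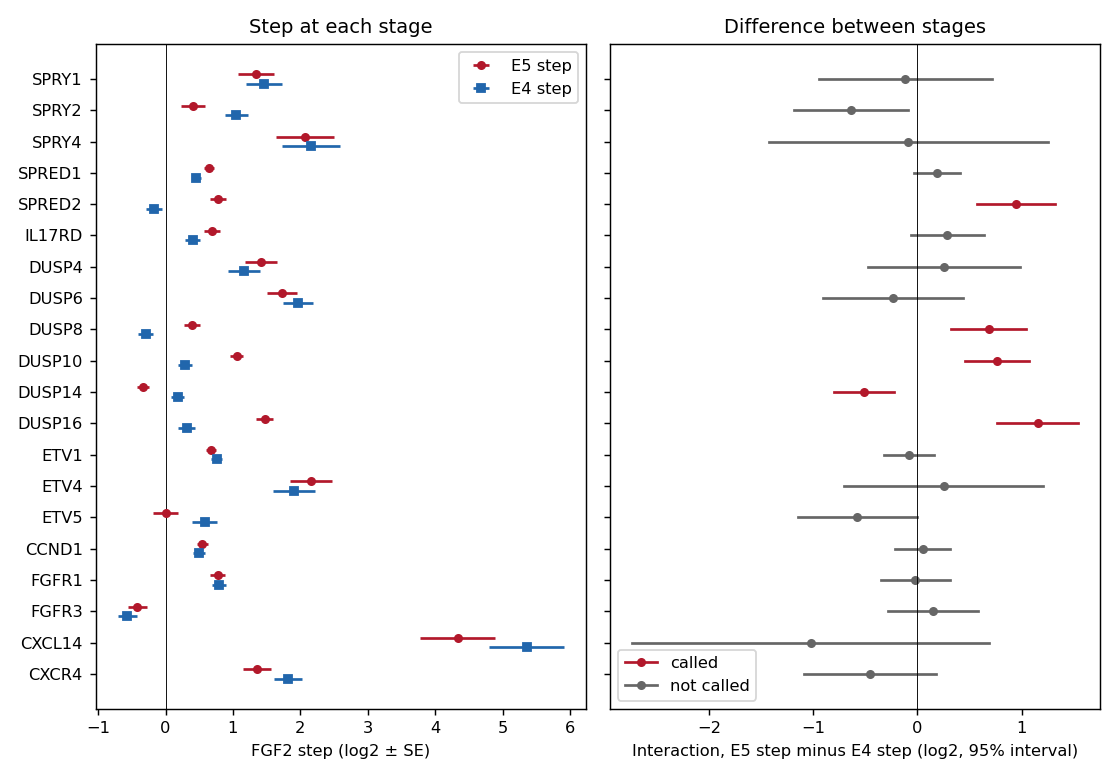
Left, FGF2 steps (log2 ± SE) at E5 (red circles) and E4 (blue squares) for FGF/ERK feedback genes, receptors and targets; right, the interaction with its 95% interval, red where called. DUSP6, SPRY1, SPRY4, ETV1 and ETV4 lie to the right of 0 at both stages with intervals of the interaction that include 0, whereas DUSP16, DUSP10, SPRED2 and DUSP8 lie right of 0 and DUSP14 left of 0 in the right panel.

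Other FGF2-responsive genes moved in the same direction at both stages. The chemokine CXCL14 had 29418, 26708 and 23594 in E5 6hPR + FGF2 against 1193, 958 and 1980.3 in E5 6hPR, and 14349, 22361 and 14963 in E4 6hPR + FGF2 against 491, 1019.7 and 139 in E4 6hPR. No library with FGF2 overlapped one without, and the interaction of -1.02 ± 0.78 was not called (95% interval -2.74 to 0.69). The chemokine receptor CXCR4 rose by 1.36 at E5 and 1.81 at E4 (interaction -0.45 ± 0.29, adjusted p = 0.322), and FGFR1 by 0.77 and 0.79. FGFR3 fell at both stages, with steps of -0.42 at E5 and -0.57 at E4, and FGFR2 had steps of 0.10 and -0.39 that did not pass. FGF10, a ligand of FGFR2, rose at both stages, with steps of 2.79 and 2.33. Among 23 FGF receptors and ligands tested, none was called higher at E5 and 2 were called lower, against 3.57% of all genes, the ligands FGF19 and FGF1. FGF1 had 34.7, 64.4 and 82.4 in E5 6hPR + FGF2 against 95.8, 125 and 172 in E5 6hPR, and 82.9, 76.6 and 110.0 in E4 6hPR + FGF2 against 15.1, 37.6 and 21.0 in E4 6hPR. It rose at E4 (step 1.93, adjusted p = 0.0136) and was lower in every E5 6hPR + FGF2 library than in any E5 6hPR library (step -1.15, adjusted p = 0.0514, which did not pass), for an interaction of -3.09 ± 0.58 (adjusted p = 0.0171, 10 of 12 fits).

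Among the 89 called genes chosen for description, 10 kept their call in all 12 fits with 1 library left out and under all 16 other alternatives. They were VNN1, DENND2D, PLPP4, C1S, ABCC4, ITGA2, ITGAV, DUSP16 and DNAJB1, higher at E5, and ACSL5, lower at E5. C1S, a serine protease of the classical complement pathway, had 2201, 2296 and 2633 in E5 6hPR + FGF2 against 160.2, 201 and 206 in E5 6hPR, and 306, 467 and 256 in E4 6hPR + FGF2 against 130.5, 170.3 and 258 in E4 6hPR. The 3 E5 6hPR + FGF2 libraries stood above the other 9, and the interaction was 2.76 ± 0.37 (adjusted p = 0.00600). VNN1, a pantetheinase that releases cysteamine, had 752, 559 and 592 in E5 6hPR + FGF2 against 22.6, 30.3 and 26.6 in E5 6hPR, and 55.6, 105 and 48.5 in E4 6hPR + FGF2 against 30.1, 62.3 and 41.0 in E4 6hPR. Its E5 step was 4.55 and its E4 step 0.62, for an interaction of 3.93 ± 0.48. DENND2D, an exchange factor for RAB GTPases, had 1572, 1337 and 576 in E5 6hPR + FGF2 against 87.0, 70.7 and 86.6 in E5 6hPR, and 98.6, 100.5 and 98.2 in E4 6hPR + FGF2 against 122, 117 and 89.4 in E4 6hPR. Here the E4 groups overlapped and the E5 groups did not (interaction 3.84 ± 0.45, adjusted p = 0.00501).

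ABCC4, an efflux transporter of cyclic nucleotides and prostaglandins, had 1960.5, 1948 and 1659.8 in E5 6hPR + FGF2 against 252, 182 and 182 in E5 6hPR, and 359, 366 and 317 in E4 6hPR + FGF2 against 304, 144 and 273 in E4 6hPR. Its interaction was 2.59 ± 0.35 (adjusted p = 0.00600). PLPP4, a lipid phosphate phosphatase, had 402, 363 and 295 in E5 6hPR + FGF2 against 71.4, 49.4 and 49.5 in E5 6hPR, and 66.1, 77.5 and 42.1 in E4 6hPR + FGF2 against 120.5, 58.7 and 88.3 in E4 6hPR. The E4 step of -0.51 did not pass and the interaction was 3.15 ± 0.45. In the other direction, ACSL5, which activates long-chain fatty acids, had 105, 67.3 and 52.9 in E5 6hPR + FGF2 against 315, 376 and 465 in E5 6hPR, and 53.5, 69.9 and 55.0 in E4 6hPR + FGF2 against 60.2, 58.7 and 54.7 in E4 6hPR. All E5 6hPR libraries were above the other 9, and the interaction was -2.42 ± 0.38 (adjusted p = 0.0113).

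**Figure D3:**
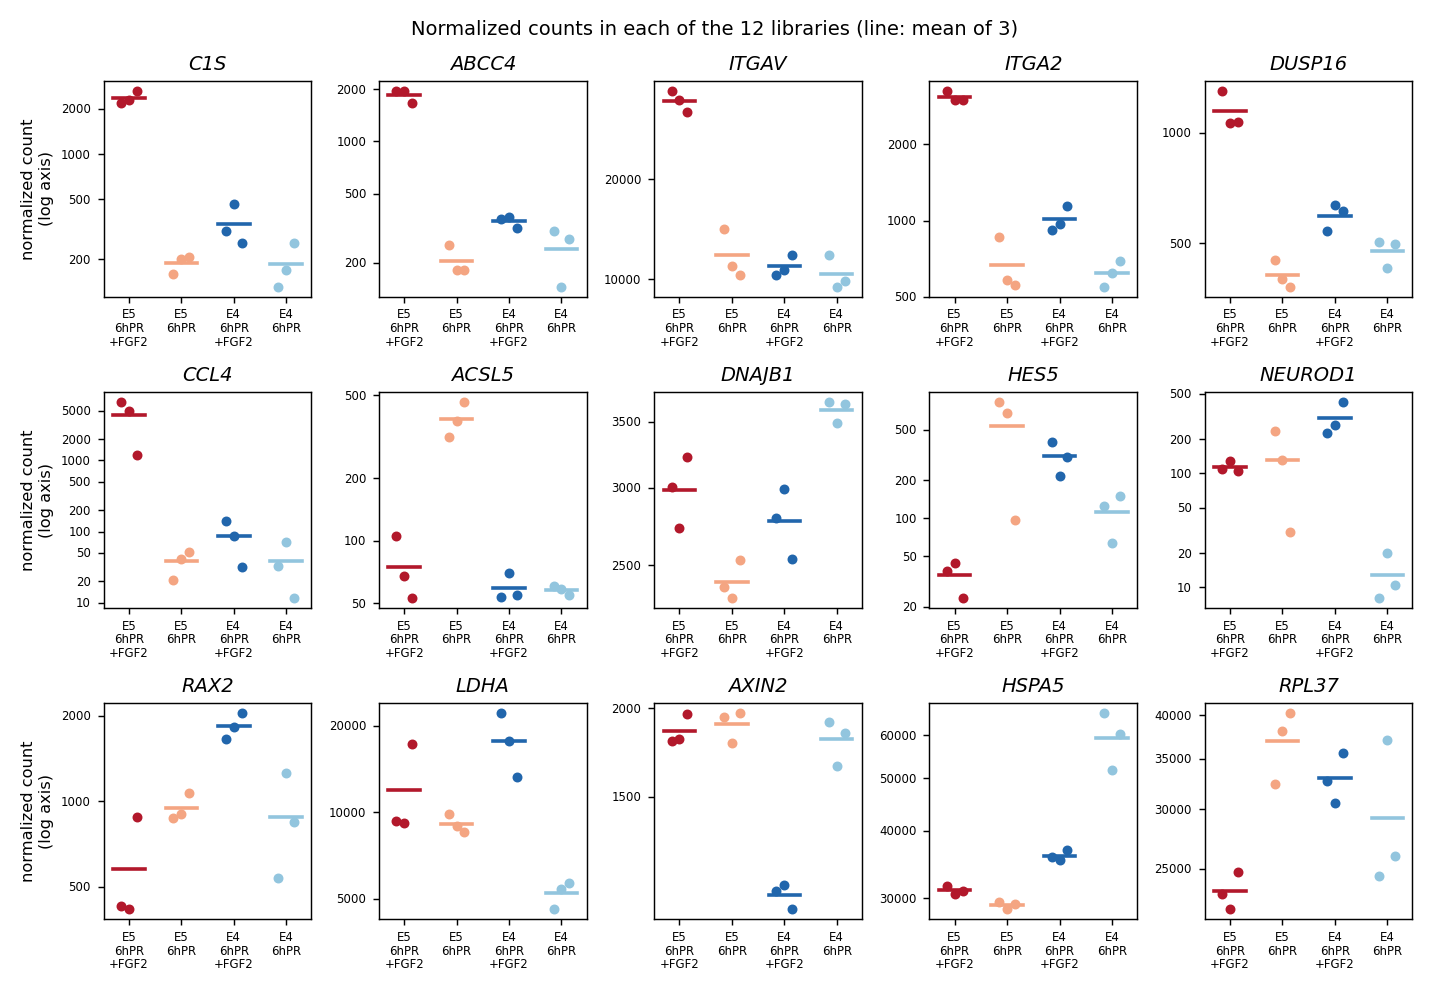
Normalized counts (vertical log axes) of 15 genes in each of the 12 libraries, 3 points a group with a line at the mean, E5 6hPR + FGF2, E5 6hPR, E4 6hPR + FGF2 and E4 6hPR from left to right. C1S, ABCC4, ITGAV, ITGA2 and DUSP16 are highest in the 3 E5 6hPR + FGF2 libraries, ACSL5 in the 3 E5 6hPR libraries, the means of NEUROD1, RAX2 and LDHA are highest in E4 6hPR + FGF2, and AXIN2 is lowest in E4 6hPR + FGF2.

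Among the other genes with the largest differences, FST, the interferon-induced IFIT5, CREB5, KCNQ3, MYBPHL and B3GNT7 had higher steps at E5. FST, which encodes the activin inhibitor follistatin, had 1899.6, 1415 and 1029 in E5 6hPR + FGF2 against 27.0, 52.7 and 113 in E5 6hPR, and 299, 200.0 and 206 in E4 6hPR + FGF2 against 40.2, 94.0 and 46.3 in E4 6hPR. It rose at both stages, more at E5 (interaction 2.64 ± 0.67, adjusted p = 0.0338), and the call held in 4 of 12 fits. CREB5, a bZIP transcription factor, had an interaction of 2.80 ± 0.47 (adjusted p = 0.0133, 11 of 12 fits), the potassium channel KCNQ3 one of 2.87 ± 0.58 (adjusted p = 0.0195, 9 of 12 fits), MYBPHL one of 3.34 ± 0.64 (9 of 12 fits), the glycosyltransferase B3GNT7 one of 2.51 ± 0.55 (7 of 12 fits) and IFIT5 one of 2.56 ± 0.63 (5 of 12 fits). Lower at E5 were ZNF385B (-2.13 ± 0.55), the bradykinin receptor BDKRB2 (-2.43 ± 0.66), MAB21L4 (-2.17 ± 0.56), the zinc transporter SLC30A2 (-1.91 ± 0.41), the cytokine IL15 (-1.89 ± 0.54) and ZPBP (-1.83 ± 0.53). The steps of ZNF385B were both positive, and it rose at both stages (steps of 1.34 at E5 and 3.47 at E4). The adjusted p-values of the 6 were 0.0224 to 0.0483, and the calls held in 1 to 7 of 12 fits.

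Immediate early genes are transcription factors that ERK and stress kinases induce quickly, and several had higher steps at E5. Of 22 tested, 6 were called higher at E5, against 7.0% of all genes, and none lower. Of the same 22, 8 rose with FGF2 at E5, against 16.7% of all genes, and 2 at E4, against 5.92%. The median step was 0.77 at E5 and 0.19 at E4, and the median interaction was 0.49 against -0.02 over all genes tested. ATF3 had 4815, 4146 and 2197 in E5 6hPR + FGF2 against 1495, 1386 and 1385 in E5 6hPR, and 1004, 719 and 939 in E4 6hPR + FGF2 against 976, 1369 and 945 in E4 6hPR. It rose at E5 and had an E4 step of -0.30 that did not pass (interaction 1.61 ± 0.36, adjusted p = 0.0241, 7 of 12 fits). JUN, a subunit of AP-1, had 9505, 8605 and 7574 in E5 6hPR + FGF2 against 3759.7, 3828 and 5025 in E5 6hPR, and 6649, 6182 and 4572 in E4 6hPR + FGF2 against 4623, 5734 and 4602 in E4 6hPR. The interaction of JUN was 0.82 ± 0.23 (adjusted p = 0.0423, 3 of 12 fits). FOSL2, another AP-1 subunit, rose at both stages, by 1.72 and 0.79 (interaction 0.93 ± 0.26), as did KLF6, by 1.14 and 0.43 (0.72 ± 0.16). NR4A3, an orphan nuclear receptor, and MAFK, a small MAF protein, had interactions of 1.32 ± 0.34 and 0.73 ± 0.15. EGR1, a direct ERK target, was not called, with an interaction of 0.59 ± 0.21 (adjusted p = 0.0919), nor was FOS, at -0.18 ± 0.64 (adjusted p = 0.883). The number of members called higher was 0 to 6 in the fits with 1 library left out, being 0 without E5 6hPR + FGF2 replicate 1 or 2 and without E4 6hPR replicate 1, 1 without E5 6hPR replicate 2 and 2 without E5 6hPR replicate 3.

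Of the cytokines, chemokines and their receptors and regulators, 8 of 35 were called higher at E5 and 1 lower, against 7.0% and 3.57% of all genes. The median step was 0.84 at E5 and 0.17 at E4. Of the 35, 16 rose at E5, where 16.7% of all genes rose, and 5 at E4, where 5.92% did. The chemokine gene annotated CCL4 (ENSGALG00000034478, a symbol that more than 1 gene of the annotation carries) had 6638, 5033 and 1186 in E5 6hPR + FGF2 against 20.9, 41.5 and 52.3 in E5 6hPR, and 143, 87.1 and 31.3 in E4 6hPR + FGF2 against 33.1, 70.5 and 11.6 in E4 6hPR. Its interaction of 5.29 ± 1.12 (adjusted p = 0.0205) held in 8 of 12 fits. IL6, an acute-phase cytokine, had 45.0, 59.6 and 45.8 in E5 6hPR + FGF2 against 0, 0 and 7.61 in E5 6hPR, and 15.7, 2.87 and 7.55 in E4 6hPR + FGF2 against 8.03, 12.9 and 14.7 in E4 6hPR. All 3 E5 6hPR + FGF2 libraries were above the other 9, and the interaction of 5.97 ± 1.38 (adjusted p = 0.0259, 7 of 12 fits) rests on few reads in the other groups. IL1R1, the receptor of interleukin 1, had an interaction of 1.53 ± 0.31 (adjusted p = 0.0190, 9 of 12 fits) and the chemokine CX3CL1 one of 1.36 ± 0.33 (adjusted p = 0.0284, 5 of 12 fits). The interferon-induced factor IRF1 had 2394, 2074 and 1168 in E5 6hPR + FGF2 against 419, 426 and 501 in E5 6hPR, and 853, 676 and 637 in E4 6hPR + FGF2 against 403, 605 and 374 in E4 6hPR, for an interaction of 1.34 ± 0.36 (adjusted p = 0.0413, 2 of 12 fits). Replicate 3 was the lowest E5 6hPR + FGF2 library for CCL4, CX3CL1, IRF1, ATF3 and FST. CD74, the invariant chain of class II antigen presentation, rose at both stages, by 2.48 at E5 and 0.94 at E4 (interaction 1.53 ± 0.26, adjusted p = 0.0139, 11 of 12 fits). Of 17 leukocyte markers, 1 was called higher at E5, CD74 itself, and none lower, against 7.0% and 3.57% of all genes. Of the 17, 15 had a positive interaction, and 4 rose and 1 fell at E5, against 16.7% and 14.4% of all genes. PTPRC, the pan-leukocyte marker CD45, had 369, 395 and 301 in E5 6hPR + FGF2 against 255, 231 and 259 in E5 6hPR, and 309.6, 526 and 365 in E4 6hPR + FGF2 against 314, 279.6 and 239 in E4 6hPR (interaction 0.01 ± 0.28). CSF1R, the macrophage growth factor receptor, had 5657, 5473 and 3299 in E5 6hPR + FGF2 against 9590.2, 8703 and 8979 in E5 6hPR, and 2172, 2446 and 1524 in E4 6hPR + FGF2 against 3106, 2688 and 2848 in E4 6hPR. It fell at E5 (step -0.96, adjusted p = 0.00514), its E4 step of -0.52 did not pass, and the interaction was -0.44 ± 0.29 (adjusted p = 0.336). The summed level of the 17 was 12705 to 17012 in E5 6hPR + FGF2, 14038 to 15090 in E5 6hPR, 6988 to 11639 in E4 6hPR + FGF2 and 8441 to 9253 in E4 6hPR, and none of the 17 was at 0 throughout a group. This sum is weighted to the abundant members CSF1R and CD74, the latter at 4778 to 5129 in E5 6hPR + FGF2. At E5 CSF1R fell and CD74 rose, so that their changes offset each other in the sum. In bulk tissue, fewer cells of a type and less RNA per cell cannot be told apart. For the 35 genes of the cytokine list, the count of members called higher was 0 without E5 6hPR + FGF2 replicate 1 or E5 6hPR replicate 2, 1 without E5 6hPR + FGF2 replicate 2 or E4 6hPR replicate 1, 4 without E5 6hPR replicate 3 and 5 without E4 6hPR + FGF2 replicate 1.

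Several factors of the neural retina had differences in the other direction. Of 32 transcription factors tested, 3 were called lower at E5 and 1 higher, against 3.57% and 7.0% of all genes, 26 had a negative interaction, and the median step was -0.27 at E5 and 0.38 at E4. NEUROD1, a proneural factor, had 109.6, 129.8 and 106 in E5 6hPR + FGF2 against 236, 131 and 30.5 in E5 6hPR, and 227, 265 and 425 in E4 6hPR + FGF2 against 8.03, 20.0 and 10.5 in E4 6hPR. It rose at E4 by 4.57 (adjusted p = 0.00159), the E5 groups overlapped, and the interaction was -4.35 ± 0.87 (adjusted p = 0.0194, 8 of 12 fits). RAX2, a retinal homeobox factor, had 428, 417 and 883 in E5 6hPR + FGF2 against 877, 904 and 1067 in E5 6hPR, and 1657, 1822 and 2047 in E4 6hPR + FGF2 against 538, 1262 and 843 in E4 6hPR. It rose at E4 (step 1.14, adjusted p = 0.0426), where the groups did not overlap, with an interaction of -1.95 ± 0.45 (adjusted p = 0.0251, 6 of 12 fits). HES5, a Notch effector of progenitors, had 38.4, 44.2 and 23.4 in E5 6hPR + FGF2 against 831, 686 and 97.1 in E5 6hPR, and 404, 215 and 305 in E4 6hPR + FGF2 against 124, 63.4 and 149 in E4 6hPR. FGF19, a ligand made by the early neural retina, had 18.7, 24.0 and 23.4 in E5 6hPR + FGF2 against 656, 526 and 40.9 in E5 6hPR, and 50.4, 36.4 and 16.2 in E4 6hPR + FGF2 against 0, 11.7 and 7.36 in E4 6hPR. Their interactions were -4.96 ± 0.97 (adjusted p = 0.0185, 10 of 12 fits) and -6.55 ± 1.72 (adjusted p = 0.0360, 3 of 12 fits). For both, E5 6hPR replicates 1 and 2 were high and replicate 3 was not.

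The same E5 6hPR libraries were high for other genes of the embryonic neural retina. ATOH7, the factor of early retinal neurons, had 16.9, 37.5 and 19.3 in E5 6hPR + FGF2 against 877, 589 and 60.0 in E5 6hPR, and 16.8, 41.2 and 6.47 in E4 6hPR + FGF2 against 7.03, 12.9 and 0 in E4 6hPR. FGF8 had 4.68, 0 and 0 in E5 6hPR + FGF2 against 555, 467 and 0 in E5 6hPR, and PTF1A, a factor of horizontal and amacrine precursors, had 0, 0 and 0 in E5 6hPR + FGF2 against 44.4, 39.3 and 0 in E5 6hPR. None of these 3 was called for the interaction (adjusted p = 0.0547, 0.193 and 0.132), though ATOH7 was called under 9 of 16 alternatives. The 13 markers of neural retina progenitors, FGF19 and NEUROD1 among them, summed to 2712, 2960 and 3118 in E5 6hPR + FGF2, 7367, 6451 and 4411 in E5 6hPR, 3878, 3922 and 4575 in E4 6hPR + FGF2 and 3036, 4114 and 3486 in E4 6hPR. Of these 13, FGF19, NEUROD1 and GADD45G (3 of 12 fits) were called lower at E5 and none higher, against 3.57% and 7.0% of all genes, and PTF1A was at 0 in all E5 6hPR + FGF2 and E4 6hPR libraries. Unlike FGF19 and NEUROD1, GADD45G was highest in replicate 3 of E5 6hPR, with 1038, 1053 and 1812 in that group. Its 1812 is part of the sum of 4411 in that library. The part of neural retina progenitor cells in the differences of HES5 and FGF19 was not tested. None of the 16 markers of neural retina neurons was called for the interaction, where 10.6% of all genes were. These 16 summed to 39078 to 51497 in E5 6hPR + FGF2, 19862 to 22004 in E5 6hPR, 16081 to 24079 in E4 6hPR + FGF2 and 12496 to 15322 in E4 6hPR. Among them was 1 abundant gene, SCG2, a granin of secretory granules, which had 34775, 31669.6 and 24526 in E5 6hPR + FGF2 against 4807, 5081 and 5495 in E5 6hPR, and 11266, 5796 and 7265 in E4 6hPR + FGF2 against 629, 1075 and 691 in E4 6hPR. SCG2 rose at both stages, the median step of the 16 was -0.31 at E5 and -0.01 at E4, and none of the 16 fell. NEUROD1 and RAX2 had their highest means in E4 6hPR + FGF2, and the part of neural retina cells in their differences was not tested.

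The factors of the eye field and of retinal progenitors described next were not called for the interaction. SIX6, required for retinal progenitor growth, rose at both stages, with 2289, 2007 and 3772 in E5 6hPR + FGF2 against 1147, 1028 and 584 in E5 6hPR, and 6713, 8127 and 7078 in E4 6hPR + FGF2 against 620.4, 1514 and 1439.6 in E4 6hPR. Its steps were 1.55 at E5 and 2.72 at E4, and the interaction of -1.17 ± 0.50 did not pass after adjustment (adjusted p = 0.150, unadjusted 95% interval -2.27 to -0.06). PAX6 (-0.37 ± 0.25), LHX2 (-0.24 ± 0.23), SOX2 (0.43 ± 0.68) and SIX3 (-0.46 ± 0.15) were not called. RAX, an eye field factor, fell at E5, with a step of -1.51, an E4 step of -0.66 that did not pass and an interaction that was not called (adjusted p = 0.211). The 1 called higher in the list was SOX11, a factor of immature neurons (0.73 ± 0.21, adjusted p = 0.0465, 3 of 12 fits). Within the Notch list, of which 3 of 21 members were called higher and 2 lower, against 7.0% and 3.57% of all genes, the receptor NOTCH2 fell at E4 (step -0.35) and had an E5 step of 0.12 (interaction 0.47 ± 0.09), and LFNG, which modifies Notch receptors, had an interaction of -0.42 ± 0.10.

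In the RPE lists, 3 of 20 transcription factors, 4 of 34 genes of retinoid handling and mature function and 4 of 26 melanosome genes were called, where 10.6% of all genes tested were. OTX2, a factor that maintains the RPE, had 22185, 22088 and 23788 in E5 6hPR + FGF2 against 29186, 30770.3 and 32281 in E5 6hPR, and 16549, 15179.8 and 16611 in E4 6hPR + FGF2 against 21267, 25284 and 19650.1 in E4 6hPR. It fell at both stages, with steps of -0.44 at E5 and -0.45 at E4, and the interaction was 0.01 ± 0.13 (95% interval -0.27 to 0.28). MITF, the master regulator of pigment cells, had 2917, 2848 and 2873 in E5 6hPR + FGF2 against 3334, 2420.5 and 2042 in E5 6hPR, and 1254, 955 and 1317 in E4 6hPR + FGF2 against 2592, 1259 and 2584 in E4 6hPR. Neither step passed, and the interaction was 0.98 ± 0.37 (adjusted p = 0.104). TFEC, a relative of MITF, was at 1.19 ± 0.36 (adjusted p = 0.0569). The pigment enzymes TYR and TYRP1 fell at E5, with steps of -0.59 and -1.03, and had E4 steps of -0.30 and -0.08 that did not pass, and the visual cycle isomerase RPE65 fell at both stages (-1.57 and -1.32), and none of the 3 was called for the interaction. RLBP1, the retinaldehyde-binding protein, had steps of -0.50 and -0.04 that did not pass. Of 20 RPE transcription factors, 3 were called higher at E5 and none lower: SOX9 (0.47 ± 0.13) and the Hippo pathway factors YAP1 (0.74 ± 0.18) and TEAD1 (1.12 ± 0.30). SOX9 had 6698, 6622 and 7405 in E5 6hPR + FGF2 against 8295, 7964 and 8260.0 in E5 6hPR, and 3519.9, 4519.8 and 4179 in E4 6hPR + FGF2 against 7009, 6328 and 6627 in E4 6hPR. It fell at E4 (step -0.71, adjusted p = 0.00108) and had an E5 step of -0.24 that did not pass, and its call held in 3 of 12 fits. Of 34 genes of retinoid handling and mature RPE function, 3 were called lower and 1 higher, with 17 members that fell at E5, where 14.4% of all genes tested fell, and 9 that fell at E4, where 4.01% did. MERTK, the receptor for engulfing photoreceptor outer segments, fell at E5 (-0.59) with an interaction of -0.41 ± 0.11 (2 of 12 fits), and CDH1, E-cadherin, fell at E5 (-0.83) with an interaction of -0.67 ± 0.19 (3 of 12 fits).

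The WNT feedback genes AXIN2 and NKD1 moved at E4. AXIN2, a direct target and inhibitor of the pathway, had 1800.3, 1813 and 1963 in E5 6hPR + FGF2 against 1946, 1786 and 1969.8 in E5 6hPR, and 1101, 1124 and 1038 in E4 6hPR + FGF2 against 1915, 1659 and 1849 in E4 6hPR. The E5 groups overlapped and the E4 groups did not, and the interaction was 0.70 ± 0.11 (adjusted p = 0.0126, 12 of 12 fits). NKD1, another induced inhibitor, had 1165, 1177 and 1081 in E5 6hPR + FGF2 against 1621, 1344 and 1085 in E5 6hPR, and 688, 646 and 630.0 in E4 6hPR + FGF2 against 1670.4, 1268 and 1642 in E4 6hPR. NKD1 fell at E4 (step -1.21), with an interaction of 0.99 ± 0.21 (adjusted p = 0.0202, 8 of 12 fits). LRP6, a WNT co-receptor, rose at E5 (0.98, interaction 1.30 ± 0.26), and the ligand WNT5B fell at E5 (-0.92, interaction -0.88 ± 0.20). With the receptor FZD2 (-0.63, 2 of 12 fits) these were the 5 called of 48 WNT pathway members, 3 higher and 2 lower, a share near the 10.6% over all genes.

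In the TGF-beta and activin pathway, 7 of 25 members were called higher at E5, against 7.0% of all genes, and none lower, FST among them, with a median step of 0.31 at E5 and -0.13 at E4. SMAD3, the signal transducer, had 9514, 9293 and 8929 in E5 6hPR + FGF2 against 5738, 4504 and 4731 in E5 6hPR, and 6169, 7762 and 6823 in E4 6hPR + FGF2 against 7501, 5648 and 7033 in E4 6hPR. It rose at E5 (step 0.90, interaction 0.85 ± 0.17, adjusted p = 0.0197, 7 of 12 fits). The SMAD co-repressors SKI and SKIL rose at E5, by 0.74 and 0.60, with interactions of 1.27 ± 0.23 (9 of 12 fits) and 0.88 ± 0.21 (6 of 12 fits). The co-receptor TGFBR3 and the receptor ACVR2B had interactions of 1.14 ± 0.30 and 0.66 ± 0.19. After removal of a trend with gene length from each library, 5 members were called higher and 1 lower, where 966 and 687 of 11808 genes were. In the BMP list, of 30 tested, 1 was called higher and 2 lower, against 7.0% and 3.57% of all genes. ID2, a target of BMP signalling and inhibitor of bHLH factors, had 15049, 15249.7 and 13572 in E5 6hPR + FGF2 against 22651, 24589.5 and 24888 in E5 6hPR, and 22743, 16643 and 21254 in E4 6hPR + FGF2 against 17588, 22473 and 19454 in E4 6hPR. It fell at E5 (step -0.72) and had an E4 step of 0.02, for an interaction of -0.74 ± 0.17 (adjusted p = 0.0248, 4 of 12 fits). BAMBI, a decoy receptor, fell at both stages, with steps of -1.63 at E5 and -0.85 at E4 (interaction -0.79 ± 0.22, 3 of 12 fits). Without E5 6hPR + FGF2 replicate 1 or 2, or E5 6hPR replicate 2, no TGF-beta member was called, and 1 to 4 were called in 6 other fits, without E5 6hPR replicate 3 or any 1 library of E4 6hPR + FGF2, or E4 6hPR replicate 1 or 3.

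The integrin genes ITGAV and ITGA2 kept their calls across libraries. Of 17 integrin subunits, these 2 were called higher at E5, against 7.0% of all genes, and none lower, and 2 to 4 were called in every fit with 1 library left out. ITGAV, the alpha-v subunit that binds vitronectin and fibronectin, had 36929.6, 34641 and 31888 in E5 6hPR + FGF2 against 14218, 10969 and 10296 in E5 6hPR, and 10282, 10715 and 11882 in E4 6hPR + FGF2 against 11822, 9493 and 9891 in E4 6hPR. Its interaction was 1.48 ± 0.18 (adjusted p = 0.00501). ITGA2, a collagen-binding subunit, had 3259.7, 2991 and 3001 in E5 6hPR + FGF2 against 863, 584 and 556 in E5 6hPR, and 918, 969 and 1146 in E4 6hPR + FGF2 against 546, 619 and 695 in E4 6hPR. It rose at both stages, by 2.24 and 0.71 (interaction 1.53 ± 0.23, adjusted p = 0.00897). With the length trend removed, the interactions were 1.23 for ITGAV and 1.24 for ITGA2, both called. Among 43 matrix and basement membrane genes, 2 were called higher and 3 lower, against 7.0% and 3.57% of all genes. The laminin chain LAMA5 rose at E5 (0.89, interaction 0.87 ± 0.18, 9 of 12 fits), and the matrix glycoprotein tenascin C, TNC, rose at both stages, by 1.84 and 1.06 (interaction 0.78 ± 0.21, 5 of 12 fits). TNC was not called after the length trend was removed (0.44, adjusted p = 0.208). In the axon guidance list, 8 of 52 were called higher, against 7.0% of all genes, and none lower. The semaphorin receptor NRP2 rose at both stages (1.67 and 0.73, interaction 0.94 ± 0.23), the ephrin receptor EPHA3 fell at E4 (-1.31, interaction 0.98 ± 0.23), and PLXNA4 fell at E4 (-1.54, interaction 2.45 ± 0.61). The median length of this list was 90.3 kb. On its 51 members with a known length, 9 were called higher and none lower before the length trend was removed. After the removal, 4 were called higher and 1 lower. Over all 11808 genes with a length, 1196 were called higher and 680 lower before the removal, and 966 and 687 after it. No member of the list was called without E5 6hPR + FGF2 replicate 1 or 2, E5 6hPR replicate 2 or E4 6hPR replicate 1. Without E4 6hPR replicate 2, 13 members were called higher, where 2133 of 17816 genes were.

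Of 40 genes of heat shock and the unfolded protein response, 7 were called higher at E5, against 7.0% of all genes, and none lower, chaperones of the endoplasmic reticulum and of the cytosol among them. HSPA5, the main chaperone of the endoplasmic reticulum, had 31546, 30531 and 30913 in E5 6hPR + FGF2 against 29462, 28614 and 29211 in E5 6hPR, and 35713, 35241 and 36859.5 in E4 6hPR + FGF2 against 65982, 51764 and 60446 in E4 6hPR. It fell at E4 (step -0.72, adjusted p = 0.000598), the level in E4 6hPR being the highest of the 4 groups, with an E5 step of 0.09 that did not pass and an interaction of 0.81 ± 0.11 (adjusted p = 0.00655, 12 of 12 fits). HSP90B1, which folds secreted and membrane proteins, rose at E5 (0.46, interaction 0.63 ± 0.13, 9 of 12 fits). DNAJB1, a cytosolic co-chaperone, had 3002, 2731 and 3227 in E5 6hPR + FGF2 against 2375, 2315 and 2530.3 in E5 6hPR, and 2792, 2987 and 2538 in E4 6hPR + FGF2 against 3668, 3494 and 3648 in E4 6hPR. It rose at E5 (0.31) and fell at E4 (-0.38), for an interaction of 0.69 ± 0.12 (adjusted p = 0.0126). SEL1L, of the degradation machinery for misfolded proteins, had an interaction of 1.08 ± 0.25 (5 of 12 fits). The list had 2 to 11 members called higher in the fits with 1 library left out. There were 2 without E5 6hPR + FGF2 replicate 1 or E5 6hPR replicate 2, where 113 and 155 of all 17816 genes were called higher. There were 11 without E4 6hPR replicate 2, where 2133 of all genes were. With the length trend removed, 15 of 39 members were called higher, where 966 of 11808 genes were.

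In glycolysis, 3 of 29 genes were called higher at E5 and 1 lower, against 7.0% and 3.57% of all genes. LDHA, lactate dehydrogenase A, had 9323, 9176 and 17330.5 in E5 6hPR + FGF2 against 9898, 8969 and 8581 in E5 6hPR, and 22142, 17751 and 13258 in E4 6hPR + FGF2 against 4606, 5409.7 and 5679 in E4 6hPR. It rose at E4 by 1.73 (adjusted p = 0.00161), the E5 groups overlapped with E5 6hPR + FGF2 replicate 3 as the highest E5 library, and the interaction was -1.41 ± 0.33 (adjusted p = 0.0267, 5 of 12 fits). SLC16A3, the lactate exporter, likewise rose at E4 (step 0.49) and had an E5 step of -0.20 (interaction -0.69 ± 0.13, adjusted p = 0.0163, 11 of 12 fits). PFKFB3, which makes the activator of phosphofructokinase, rose at E5 (1.50, interaction 1.04 ± 0.19, 10 of 12 fits), HK2 rose at both stages (1.13 and 0.48, 0.65 ± 0.17) and HK1 at E5 (0.33, 0.37 ± 0.09). The taurine transporter SLC6A6 fell at E4 (-1.01, interaction 1.20 ± 0.31, 3 of 12 fits).

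Most genes of cytosolic ribosomal proteins and of oxidative phosphorylation fell with FGF2 at E5. Of 64 ribosomal protein genes, 59 fell at E5, against 14.4% of all genes tested, and none was called at E4, with a median step of -0.48 at E5 and 0.05 at E4. All 64 had a negative interaction (median -0.53), and 5 were called, against 3.57% of all genes called lower. RPL37 had 23164, 22090.4 and 24743 in E5 6hPR + FGF2 against 32450.1, 38104 and 40279 in E5 6hPR, and 32738, 30630.4 and 35696 in E4 6hPR + FGF2 against 24486, 37121 and 26003 in E4 6hPR. The E5 groups did not overlap, E4 6hPR replicate 2 was the highest of its stage, and the interaction was -0.86 ± 0.20 (adjusted p = 0.0264, 5 of 12 fits). RPS23 (-1.48), RPL17 (-1.27), RPS24 (-0.70) and RPS15A (-0.65) were the other 4. Within E5 6hPR, RPS23 ranged from 34317 to 70065 and RPL17 from 46568 to 87243. Of 53 genes of oxidative phosphorylation, 32 fell at E5 (background 14.4%) and 1 rose at each stage, 52 had a negative interaction, and 12 were called lower (background 3.57%), with a median interaction of -0.46. COX7C, a subunit of cytochrome oxidase, had 5348, 5121 and 4959 in E5 6hPR + FGF2 against 8056, 10039.8 and 14622 in E5 6hPR, and 7036, 8737 and 12338 in E4 6hPR + FGF2 against 5393, 9938 and 5967 in E4 6hPR. For COX7C, replicate 3 was the highest library of E5 6hPR and of E4 6hPR + FGF2, where HINTW was at 0 and 60.4. The part of such a difference between pools in these interactions was not tested. The interaction of COX7C was -1.46 ± 0.38 (adjusted p = 0.0349, 3 of 12 fits), that of NDUFV2, a subunit of complex I, -0.64 ± 0.14 and that of NDUFS4 -1.16 ± 0.32. These counts depended on single libraries: with E5 6hPR replicate 1 left out, 46 ribosomal and 37 oxidative phosphorylation genes were called, with E4 6hPR replicate 2 left out, 45 and 35, and with any 1 of E5 6hPR + FGF2 replicates 1 and 2, E5 6hPR replicates 2 and 3, and E4 6hPR replicates 1 and 3 left out, none. Of all 17816 genes, 1265 were called lower without E5 6hPR replicate 1 and 1649 without E4 6hPR replicate 2. Both lists hold short genes, with median lengths of 3.17 kb and 3.70 kb. With the length trend removed, the medians of the interaction were -0.26 and -0.22. That fit held only genes with a known length, 63 ribosomal and 49 of oxidative phosphorylation. On these genes 13 and 15 members were called lower before the removal, and 2 and 11 after it. Of all 11808 genes with a length, 680 were called lower before it and 687 after it. After the removal, the ribosomal count was not above that share, and the count for oxidative phosphorylation was. Genes of ribosome biogenesis did not share this direction, since 20 of 38 rose at E5 and 19 at E4, 15 of them at both stages. Of all genes tested, 16.7% rose at E5 and 5.92% at E4.

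**Figure D4:**
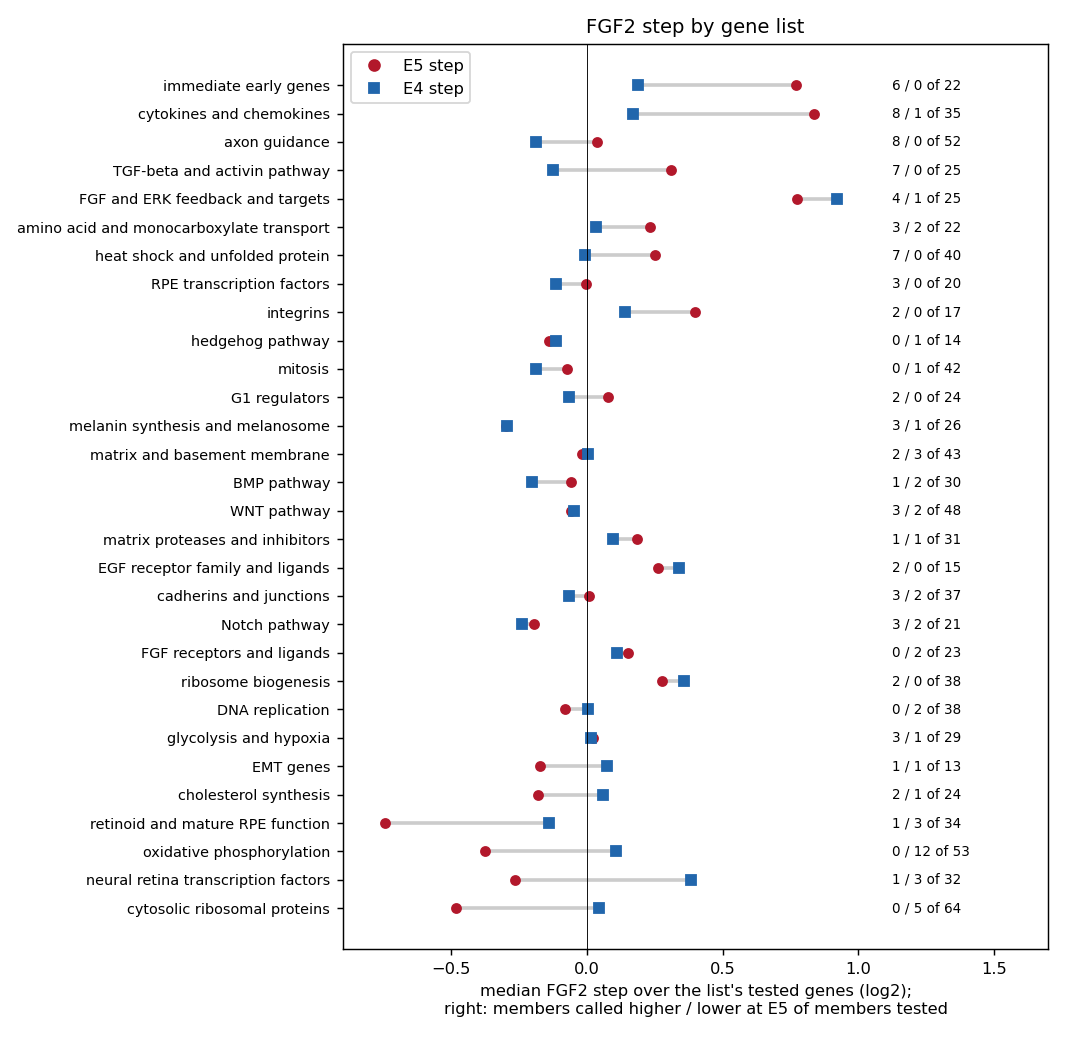
Median FGF2 step (log2, horizontal) over the tested genes of each list at E5 (red circles) and E4 (blue squares), ordered by the median interaction, with the members called higher and lower at E5 on the right. Immediate early genes and cytokines lie further right at E5 than at E4, FGF/ERK feedback genes are far right at both stages, and ribosomal proteins, oxidative phosphorylation and neural retina factors lie left of 0 at E5 only.

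Few DNA replication and mitosis genes were called for the interaction. Of 38 DNA replication genes, 8 fell at E5, against 14.4% of all genes, and none moved at E4. For the interaction 2 were called, both lower, against 3.57% of all genes: RFC4, a clamp loader subunit (-0.45 ± 0.12), and POLD3, a subunit of DNA polymerase delta (-0.36 ± 0.09). Of 42 mitosis genes, 8 fell at E5 and none moved at E4, and 1 was called lower, the checkpoint gene MAD2L1 (-0.39 ± 0.11). With 1 library left out, 0 to 12 mitosis genes were called higher and 0 to 3 lower. Of all 17816 genes, 113 to 2133 were called higher and 30 to 1649 lower in these fits. CCND1, cyclin D1, rose at both stages, by 0.55 at E5 and 0.50 at E4. E2F1, which drives entry into S phase, had 1028, 1017 and 936 in E5 6hPR + FGF2 against 2099, 2066 and 893 in E5 6hPR, and 1939, 2064 and 1795 in E4 6hPR + FGF2 against 1969, 2073 and 2038 in E4 6hPR, with E5 6hPR replicate 3 below its group, and was not called (-0.59 ± 0.36, adjusted p = 0.298). CDKN1A, the CDK inhibitor p21, had 488, 442 and 612 in E5 6hPR + FGF2 against 105, 119 and 136 in E5 6hPR, and 246, 171 and 119.8 in E4 6hPR + FGF2 against 112, 125 and 113 in E4 6hPR. It rose at E5 (step 2.09), for an interaction of 1.53 ± 0.35 (adjusted p = 0.0243, 6 of 12 fits). The repressor E2F7 rose at E5 (1.03, interaction 1.20 ± 0.31, 3 of 12 fits).

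The interaction moved with gene length. Among 10229 of 10604 genes with a symbol and a mean of 50 or more (96.5%) whose span could be taken from the RefSeq annotation (assembly GRCg7b), genes called higher at E5 had a median length of 49.6 kb and genes called lower one of 9.92 kb, against 18.02 kb overall. The median interaction was -0.35 in the 753 genes under 3 kb and 0.40 in the 889 genes of 100 to 300 kb, and the Spearman correlation of length with the interaction was 0.444 across genes, with the E5 step 0.312 and with the E4 step -0.231, given as descriptions. The libraries also differed in this respect. The median deviation of 1065 genes of 100 kb or more minus that of 3355 genes under 10 kb was 0.40, 0.43 and 0.33 in E5 6hPR + FGF2, 0.24, -0.14 and -0.18 in E5 6hPR, -0.47, -0.26 and -0.14 in E4 6hPR + FGF2 and 0.14, -0.34 and -0.03 in E4 6hPR. The part of length in the differences was examined in 1 alternative, chosen after seeing the data, in which the trend with length was removed from each library; its cause was not tested. Over the 11808 genes with a length, 1876 were called before the removal (1196 higher, 680 lower) and 1653 after it (966 higher, 687 lower). The set of genes also changed, since 1520 of the 1883 genes called in the main fit were among the former and 1134 among the latter. Among the 89 called genes, 75 kept their call. The other 14 were DUSP8, ACVR2B, BAMBI, ID2, TNC, HK1, HK2, RPS23, RPL17, RPS15A, CDH1, MAD2L1, NRP2 and NOTCH2. Of 12 erythrocyte markers, all had a positive interaction and 2 were called higher at E5, against 7.0% of all genes, SLC4A1 (1.44 ± 0.32, 7 of 12 fits) and EPB42 (1.31 ± 0.37, 1 of 12 fits). With the length trend removed, 6 of the 12 were called higher, where 966 of 11808 genes were. Their median interaction was 0.95 before the removal and 1.30 after it. The summed level of the 12 was 719144 to 940281 in E5 6hPR + FGF2, 503696 to 644930 in E5 6hPR, 739658 to 1728050 in E4 6hPR + FGF2 and 1160530 to 1840080 in E4 6hPR.

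**Figure D5:**
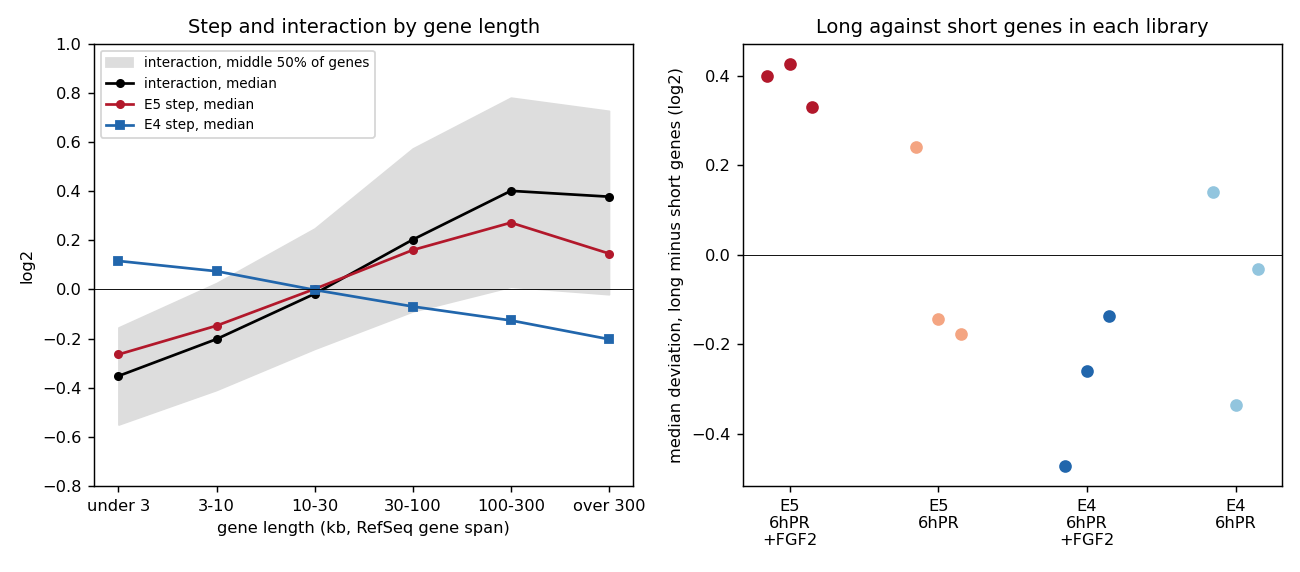
Left, median interaction (black, with the middle 50% of genes shaded) and median FGF2 steps at E5 (red) and E4 (blue) by gene length, all log2; right, for each library, the median deviation of genes of 100 kb or more minus that of genes under 10 kb. The median interaction lies at -0.35 for the shortest genes and 0.40 at 100 to 300 kb, and the E5 6hPR + FGF2 libraries (0.33 to 0.43) lie above all E4 6hPR + FGF2 libraries (-0.47 to -0.14).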

How the data were processed

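RNA was sequenced as stranded, poly(A)-selected libraries, and per the methods and the submitters' processing notes the authors used Cutadapt and Trim Galore for trimming and STAR in 2-pass mode for alignment to chicken genome GRCg6a, quantified Ensembl release 101 genes with StringTie and divided the counts by DESeq2 size factors; versions are not given in the sources used here. The deposited signal values are these normalized counts, for 18336 genes in 18 libraries. Each value is a whole multiple of 1 step per library, and 100% of values came out as whole reads (tolerance 1e-06), which gave the totals of reads and the input of the count tests.

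Of the 18 libraries, the 12 of the 4 retinectomy groups were fitted with limma 3.58.1 (R 4.3.3) on log2(normalized count + 0.5), with 4 group means and a mean-variance trend, over 17816 genes whose normalized counts summed to 10 or more. Adjusted p-values are Benjamini-Hochberg over all genes tested, and 5450 genes tested have no symbol. A fold on this scale understates the change of low genes. On the recovered reads, edgeR 4.0.16 called 1841 and DESeq2 1.42.0 called 3605 genes for the interaction. Named genes are the 12 largest called differences in each direction with a symbol and a mean of 50 or more, up to 6 called members of each list, and a set of key genes. Of the 164 that meet this rule, 121 are described, chosen after their values were seen, and 39 further genes are given with values, all chosen after their values were seen and some outside the rule. Some genes of the rule are not reported here. The members and gene lists were chosen with earlier results of these data known. Alternatives were other pseudocounts, filters, scalings, limma settings, samples, tools, a replicate term, each library left out and, chosen after seeing the data, a removal of the gene length trend. Gene lengths are spans of RefSeq genes matched by symbol. The labels give White Leghorn eggs, whereas the methods name SPAFAS eggs from another supplier for RNA-seq, and which eggs were used could not be settled. Library depth limits low genes, and intervals from limma cover the spread between libraries.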

Additional observations from a re-analysis of the deposited data

Results flagged for a closer look

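A difference in the FGF2 step between E5 and E4, by the test of the interaction itself, was found for 1883 genes, of which those named in the text are collected here with their interaction (log2, E5 step minus E4 step). No test for single outlying samples was applied to groups of 3 libraries, and the effect of leaving out each library is given with the results.

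For FGF/ERK feedback genes, the step was higher at E5 for DUSP16 (1.16), SPRED2 (0.95), DUSP10 (0.76) and DUSP8 (0.69) and lower for DUSP14 (-0.51). For FGF ligands, the step was lower at E5 for FGF19 (-6.55) and FGF1 (-3.09). For immediate early genes, the step was higher at E5 for ATF3 (1.61), NR4A3 (1.32), FOSL2 (0.93), JUN (0.82), MAFK (0.73) and KLF6 (0.72). For cytokines, interferon-induced and complement genes, the step was higher at E5 for IL6 (5.97), CCL4 (5.29), C1S (2.76), IFIT5 (2.56), IFIH1 (2.47), CD74 (1.53), IL1R1 (1.53), CX3CL1 (1.36), IRF1 (1.34), C1R (1.30) and PARP9 (1.21) and lower for IL15 (-1.89). For neural and Notch genes, the step was higher at E5 for SOX11 (0.73) and NOTCH2 (0.47) and lower for HES5 (-4.96), NEUROD1 (-4.35), RAX2 (-1.95), GADD45G (-1.46) and LFNG (-0.42). For RPE and pigment genes, the step was higher at E5 for TEAD1 (1.12), MYO5A (1.05), YAP1 (0.74), HPS5 (0.64), SOX9 (0.47) and HPS6 (0.43) and lower for CDH1 (-0.67) and MERTK (-0.41). For TGF-beta and BMP genes, the step was higher at E5 for FST (2.64), SKI (1.27), TGFBR3 (1.14), SKIL (0.88), SMAD3 (0.85) and ACVR2B (0.66) and lower for BAMBI (-0.79) and ID2 (-0.74). For WNT and hedgehog genes, the step was higher at E5 for LRP6 (1.30), NKD1 (0.99) and AXIN2 (0.70) and lower for CDON (-0.90), WNT5B (-0.88) and FZD2 (-0.63). For adhesion and matrix genes, the step was higher at E5 for ITGA2 (1.53), ITGAV (1.48), DSG2 (1.10), LAMA5 (0.87), TNC (0.78) and TJP1 (0.62) and lower for ACTA2 (-1.14), TFPI2 (-0.76), PECAM1 (-0.67) and JAM3 (-0.43). For axon guidance genes, the step was higher at E5 for PLXNA4 (2.45), EPHA3 (0.98) and NRP2 (0.94).

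For chaperones and protein quality control, the step was higher at E5 for SEL1L (1.08), HSPA5 (0.81), DNAJB1 (0.69) and HSP90B1 (0.63). For glycolysis, the step was higher at E5 for PFKFB3 (1.04), HK2 (0.65) and HK1 (0.37) and lower for LDHA (-1.41) and SLC16A3 (-0.69). For transporters and channels, the step was higher at E5 for KCNQ3 (2.87), ABCC4 (2.59), SLC16A10 (1.62), SLC6A6 (1.20) and SLC7A11 (1.13) and lower for SLC30A2 (-1.91) and SLC16A9 (-0.37). For ribosomal proteins and oxidative phosphorylation, the step was lower at E5 for RPS23 (-1.48), COX7C (-1.46), RPL17 (-1.27), NDUFS4 (-1.16), RPL37 (-0.86), RPS24 (-0.70), RPS15A (-0.65) and NDUFV2 (-0.64). For the cell cycle, the step was higher at E5 for CDKN1A (1.53) and E2F7 (1.20) and lower for RFC4 (-0.45), MAD2L1 (-0.39) and POLD3 (-0.36). For lipid and sterol metabolism, the step was higher at E5 for PLPP4 (3.15), HMGCS1 (0.84) and SREBF2 (0.50) and lower for ACSL5 (-2.42) and MVK (-0.56). For the EGF receptor family and its regulators, the step was higher at E5 for LRIG1 (0.80) and EGFR (0.65). For erythrocyte markers, the step was higher at E5 for SLC4A1 (1.44) and EPB42 (1.31). For genes in none of these groups, the step was higher at E5 for VNN1 (3.93), DENND2D (3.84), MYBPHL (3.34), CREB5 (2.80) and B3GNT7 (2.51) and lower for BDKRB2 (-2.43), MAB21L4 (-2.17), ZNF385B (-2.13) and ZPBP (-1.83).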

How the results depend on the processing

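The count of 1883 genes for the interaction was 143 to 3782 with 1 library left out, and it moved by more than 1.5 times in 10 of these 12 fits. It was 830 without the mean-variance trend (603 higher at E5, 227 lower), 482 with all 18 libraries in the fit (306 and 176), 244 without replicate 3 of both E5 6hPR and E4 6hPR + FGF2 (178 and 66), 3605 with DESeq2 (2051 and 1554) and 5383 with array weights (2873 and 2510), against 1247 higher and 636 lower as reported. The cause of these shifts was not tested. The other 11 alternatives, among them pseudocounts of 1 and 5, TMM scaling, quantile normalization, edgeR and the removal of the length trend, gave 1285 to 2133.

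The E5 step had 3614 to 6064 genes with 1 library left out and 9041 with array weights, against 5546. The E4 step had 870 to 2912 with 1 library left out and 2850 with DESeq2, against 1770. The stage difference without FGF2 had 2709 to 4675 and, with array weights, 6180, against 4082; that with FGF2 stayed within 1.5 times of 6071. With the replicate number as a block, 1285 genes were called for the interaction, and 67 of the 89 called genes kept the call. Same-numbered libraries correlated above 0.1 in 5 of 18 pairs (r of -0.13 to 0.52), so same-numbered libraries were not treated as pairs.

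No gene described was called with the opposite sign under any alternative. Of the 89 called genes, 12 kept the call with each library left out in turn, 12 under all 16 other alternatives and 10 under both. Lost calls numbered 77, 68 and 27 without E5 6hPR + FGF2 replicates 1, 2 and 3, 7, 73 and 49 without those of E5 6hPR, 41, 23 and 28 without those of E4 6hPR + FGF2, and 60, 1 and 48 without those of E4 6hPR. Of 32 genes described as not called, 23 stayed so throughout. Among the 39 further genes given with values, 25 were called for the interaction. Only 6 of these 25 kept the call with each library left out in turn, and 5 under all 16 other alternatives. With the length trend removed 20 kept it, and GADD45G, FZD2, EGFR, LRIG1 and TJP1 did not.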

Other observations

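Several interferon-induced and complement genes, picked after their values were seen, had higher FGF2 steps at E5. IFIH1, a sensor of double-stranded RNA, had normalized counts of 1413, 1243 and 748 in E5 6hPR + FGF2 against 124, 109 and 167 in E5 6hPR, and 338, 327 and 209 in E4 6hPR + FGF2 against 228, 143 and 206 in E4 6hPR. The E5 6hPR + FGF2 libraries were above the other 9, and the interaction was 2.47 ± 0.41 (limma, adjusted p = 0.0126). C1R, the protease that activates C1S, had 2137, 1851 and 2003 in E5 6hPR + FGF2 against 978, 967 and 1005 in E5 6hPR, and 871, 929 and 798 in E4 6hPR + FGF2 against 1219, 863 and 1092 in E4 6hPR, for an interaction of 1.30 ± 0.17 (adjusted p = 0.00600). PARP9 rose at both stages, by 2.16 at E5 and 0.95 at E4 (interaction 1.21 ± 0.19, adjusted p = 0.0109). IFIH1, C1R and PARP9 kept the call in 12 of 12 fits with 1 library left out and under all 16 other alternatives. MX1 rose at E5 (6.98) and had an E4 step of 1.93 that did not pass, and OASL rose at both stages (3.08 at E5 and 1.42 at E4). Neither was called for the interaction (adjusted p = 0.0869 and 0.0652), nor was RSAD2 (adjusted p = 0.129).

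Among junction genes, 3 of 37 were called higher at E5 and 2 lower, against 7.0% and 3.57% of all genes tested. DSG2, a desmosomal cadherin, had 2292, 2261 and 2153 in E5 6hPR + FGF2 against 1404, 1302 and 1412 in E5 6hPR, and 1309, 1217 and 1406 in E4 6hPR + FGF2 against 1911, 1405 and 1886 in E4 6hPR. Its interaction of 1.10 ± 0.16 (adjusted p = 0.00871) held in 12 of 12 fits and under all 16 other alternatives. The tight junction scaffold TJP1 (0.62 ± 0.17, 3 of 12 fits) was higher at E5 and the adhesion molecule JAM3 lower (-0.43 ± 0.09, 9 of 12 fits). TJP1 was not called once the length trend was removed. Of 22 transporters of amino acids and monocarboxylates, 3 were called higher and 2 lower, against the same shares. SLC16A10, a carrier of aromatic amino acids, had an interaction of 1.62 ± 0.28 (12 of 12 fits) and SLC7A11, the cystine importer, one of 1.13 ± 0.21 (10 of 12 fits), while SLC16A9 was lower (-0.37 ± 0.10, 3 of 12 fits). The EGF receptor EGFR (0.65 ± 0.18) and its inhibitor LRIG1 (0.80 ± 0.22) were called higher, in 4 and 3 of 12 fits, and neither was called once the length trend was removed. In cholesterol synthesis, HMGCS1 (0.84 ± 0.17, 9 of 12 fits) and SREBF2 (0.50 ± 0.12, 3 of 12 fits) were called higher and MVK lower (-0.56 ± 0.14, 4 of 12 fits), of 24 tested, against the same shares of 7.0% and 3.57%. In the melanosome list, 3 of 26 were called higher and 1 lower, against 7.0% and 3.57% of all genes. The higher ones were the motor MYO5A (1.05 ± 0.22, 7 of 12 fits) and the trafficking genes HPS5 (0.64 ± 0.15, 4 of 12 fits) and HPS6 (0.43 ± 0.12, 3 of 12 fits). With 1 library left out, 0 to 6 members were called higher and 1 to 3 lower. TFPI2, a protease inhibitor, was lower (-0.76 ± 0.11, adjusted p = 0.00886, 12 of 12 fits), as was ACTA2 (-1.14 ± 0.32, 4 of 12 fits). The hedgehog co-receptor CDON (-0.90 ± 0.18, 7 of 12 fits) and the endothelial marker PECAM1 (-0.67 ± 0.15, 7 of 12 fits) were also lower. PECAM1 rose at E4 (step 0.61) and was the 1 called of 11 endothelial markers, against 3.57% of all genes. The median interaction of the 11 was -0.02, with 4 positive and 7 negative, and 3 of them fell at E4.

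SCG2 rose at both stages, by 2.55 at E5 and 3.33 at E4, and was not called for the interaction (adjusted p = 0.162). Further ERK targets with called steps at both stages and no called interaction were DUSP7 (1.40 at E5 and 0.92 at E4), TRIB1 (1.99 and 1.48), MYC (1.57 and 0.95) and HBEGF (2.22 and 2.26).

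Genes without a symbol were also among the largest differences. ENSGALG00000046879 had 460.8, 351 and 251 normalized counts in E5 6hPR + FGF2 and 0 in all E5 6hPR and E4 6hPR + FGF2 libraries, and 0, 5.87 and 3.15 in E4 6hPR (adjusted p = 0.00355). ENSGALG00000016556 had 441, 396 and 133 in E5 6hPR + FGF2, against 54.8, 23.6 and 94.2 in E5 6hPR, and 18.9, 20.1 and 5.39 in E4 6hPR + FGF2, against 61.2, 43.5 and 37.9 in E4 6hPR, with an interaction of 4.33 (adjusted p = 0.0202). ENSGALG00000027002 and ENSGALG00000001136 were lower at E5 (-3.26 and -2.23), and both were high in E5 6hPR replicates 1 and 2 and lower in replicate 3, as HES5 and FGF19 were.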
